A study of Mus musculus with 24 samples.

Results

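The nuclear genes that encode the proteins of the mitochondrial ribosome were followed across 3 sorted mouse bone marrow populations and 3 Jak2 genotypes. They were taken as every gene of the count table whose symbol starts with Mrpl or Mrps and a number, leaving out pseudogene symbols ending in -ps, of which the table held 0. This gave 78 of 24454 genes, 49 with large subunit names (Mrpl) and 29 with small subunit names (Mrps). All 78 passed the filter on low counts in each fit of the 3 populations, and none was at 0 in any library.

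The 24 RNA-seq libraries came from C57BL/6N bone marrow and fall into 8 groups of 3. LTHSC (long-term haematopoietic stem cells) and MkP (megakaryocyte progenitors) were sorted from 3 genotypes, and preMegE (the progenitors before megakaryocytes and red cells) from 2. The genotype called KI here is labelled Scl.Cre mouse Jak2 knock-in, E12 is Scl.Cre Exon12, and VF is Vav1.Cre V617F, so the Cre driver changes together with the V617F allele, and the allele and the driver cannot be told apart. All mice received tamoxifen on 5 days and cells were sorted 12 weeks later. The series compares wild-type with mutant Jak2 strains, but the labels do not name the wild-type group, and nothing in them ties each replicate to a mouse of its own. If replicates share mice, the p-values measure only the spread between these samples.

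Mitochondrial ribosomes translate the few proteins encoded in mitochondrial DNA, which are core subunits of the respiratory chain and of ATP synthase. Their RNA is made in the mitochondrion, but all of their proteins are encoded in the nucleus and imported. The large subunit carries the peptidyl transferase centre and the small subunit binds the messenger RNA. Symbols do not always follow the structure: the products of Mrps18a and Mrps30 sit in the large subunit, and that of Mrps36 is now known as a subunit of the 2-oxoglutarate dehydrogenase complex.

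The 78 genes lie on 17 chromosomes, and 33 share exon bases with another gene in GENCODE M21, 18 of them over 10% of their own. The libraries came from a Smart-seq2 protocol, which does not mark strand, so reads over such bases cannot be told apart. Mrps11 and Mrpl46 are such a pair: the genes run in opposite directions from neighbouring starts on chromosome 7 and share 173 exon bases, so that the Mrps11 window shown here also holds the first bases of Mrpl46. The upstream bases of 6 members are shown because 71 of the 78 members rose in preMegE against LTHSC. The first 4 are the members with the smallest p-values in that comparison that had a promoter in the RefSeq table, Mrps11 is from the pair above, and Mrpl1 is the member of lowest level, which did not pass the test. Each run is the 250 bases before the RefSeq start of transcription, on the gene's strand, with matches to 4 motifs in capitals: an ETS site (CCGGAAG), an NRF1 core (GCATGCG), a YY1 core (ATGGCGG) and an E-box (CACGTG). The GRCm38.p6 positions are chr11:120484387-120484636 on the plus strand for Mrpl12, chr17:35916441-35916690 on the minus strand for Mrps18b, chr4:107066867-107067116 on the minus strand for Mrpl37, chr17:12916092-12916341 on the minus strand for Mrpl18, chr7:78782881-78783130 on the plus strand for Mrps11 and chr5:96209865-96210114 on the plus strand for Mrpl1.
Mrpl12: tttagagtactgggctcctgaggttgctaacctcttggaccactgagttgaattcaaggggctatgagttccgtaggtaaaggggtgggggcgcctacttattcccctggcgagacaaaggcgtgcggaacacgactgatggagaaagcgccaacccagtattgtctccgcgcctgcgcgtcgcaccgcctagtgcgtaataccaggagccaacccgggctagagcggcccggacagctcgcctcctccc
Mrps18b: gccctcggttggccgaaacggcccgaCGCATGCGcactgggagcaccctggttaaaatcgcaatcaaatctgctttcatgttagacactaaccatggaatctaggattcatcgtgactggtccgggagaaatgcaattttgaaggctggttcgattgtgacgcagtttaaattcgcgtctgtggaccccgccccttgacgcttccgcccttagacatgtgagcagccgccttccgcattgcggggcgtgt
Mrpl37: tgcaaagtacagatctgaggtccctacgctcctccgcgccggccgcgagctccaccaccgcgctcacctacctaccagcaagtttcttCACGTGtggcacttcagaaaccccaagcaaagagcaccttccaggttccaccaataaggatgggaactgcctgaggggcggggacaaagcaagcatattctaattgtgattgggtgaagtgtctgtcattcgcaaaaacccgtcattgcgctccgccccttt
Mrpl18: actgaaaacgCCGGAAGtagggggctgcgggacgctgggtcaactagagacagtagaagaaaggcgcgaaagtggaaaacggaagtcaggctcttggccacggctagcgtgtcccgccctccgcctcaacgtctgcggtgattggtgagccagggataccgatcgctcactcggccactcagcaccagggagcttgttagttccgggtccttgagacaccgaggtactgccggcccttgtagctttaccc
Mrps11: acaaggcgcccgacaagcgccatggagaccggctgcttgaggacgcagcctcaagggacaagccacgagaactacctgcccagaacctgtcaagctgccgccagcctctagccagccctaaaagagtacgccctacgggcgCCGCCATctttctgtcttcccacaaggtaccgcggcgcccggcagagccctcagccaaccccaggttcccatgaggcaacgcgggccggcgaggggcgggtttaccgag
Mrpl1: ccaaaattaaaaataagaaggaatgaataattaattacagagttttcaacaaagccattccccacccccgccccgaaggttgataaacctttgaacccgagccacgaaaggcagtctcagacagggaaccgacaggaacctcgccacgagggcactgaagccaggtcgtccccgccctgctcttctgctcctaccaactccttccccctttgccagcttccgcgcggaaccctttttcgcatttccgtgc

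No match stood in the Mrpl12 and Mrpl1 windows. Mrps18b held 2 overlapping matches to the NRF1 core, 1 on each strand, Mrpl37 an E-box, Mrpl18 an ETS site and Mrps11 a YY1 core on the opposite strand. Over the full 300 bases of the table (250 before the start and 50 after), 75 promoters of 69 members could be searched on both strands. An ETS site was in 34.7% of them, against 8.86% of all 32851 promoters and 16.0% of the 14756 promoters of genes tested here. The YY1 core was in 17.3%, against 4.05% and 7.21%. The NRF1 core was in 10.7%, against 3.58% and 5.84%, and the E-box in 9.33%, against 7.15% and 9.56%. These shares describe letters, not binding. No entry was in the table for Mrpl4, Mrpl13, Mrpl15, Mrpl19, Mrpl38, Mrpl54, Mrps28, Mrps34 and Mrps35.

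The libraries held 10357877 to 29691635 counts over 13237 to 16006 detected genes. In 4 libraries the TMM scaling factor within the population was under 0.8: LTHSC E12 replicate 4, preMegE KI replicate 1 and MkP KI replicates 5 and 6. TMM scales each library so that most genes keep their level. LTHSC E12 replicate 4 also went against its label: its 12 LTHSC markers summed to 945 CPM (counts scaled to one library size for all libraries), against 2640 to 3500 in the other 8 LTHSC libraries, and its 14 neutrophil and monocyte markers to 27100 CPM, against 336 to 2280. In MkP the 13 megakaryocyte markers summed to 3770 to 17200 CPM and elsewhere to 730 to 3650, and in preMegE the 13 erythroid markers summed to 4480 to 12700 CPM and elsewhere to 2210 to 3480, while the LTHSC markers summed to 316 to 999 CPM in preMegE and 657 to 1940 in MkP. The label markers were thus highest in their own population, except in LTHSC E12 replicate 4, which lay below most MkP libraries in LTHSC markers. The population results are given with and without the 4 libraries.

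The summed level of the 78 genes, as TMM-scaled CPM, was lowest in LTHSC, higher in MkP and highest in preMegE. In the 20 other libraries it was 4630 ± 253 (SD, n = 8) in LTHSC, from 4234 to 5003. It was 6630 ± 495 (n = 7) in MkP, from 5966 to 7376, and 9580 ± 1310 (n = 5) in preMegE, from 7716 to 10850. The 3 ranges do not overlap. The 4 libraries stood far above their populations, at 11670 in LTHSC E12 replicate 4, 43270 in preMegE KI replicate 1, and 30150 and 39180 in MkP KI replicates 5 and 6. As an unscaled share of all counts, the genes took 0.522 to 0.6% in the 8 LTHSC libraries, 0.671 to 0.769% in the 7 MkP and 0.779 to 1.06% in the 5 preMegE, and 1.08, 2.34, 1.74 and 2.05% in the 4. The large and small subunit genes moved largely together: the ratio of their sums stayed between 1.64 and 1.93 in all 24 libraries. It was lowest in preMegE KI replicate 1 and MkP KI replicates 5 and 6, at 1.69, 1.64 and 1.7. LTHSC E12 replicate 4 had 1.87, and the 20 other libraries ran from 1.75 to 1.93. In bulk samples, fewer cells of a type and less RNA per cell cannot be told apart.

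**Figure D1:**
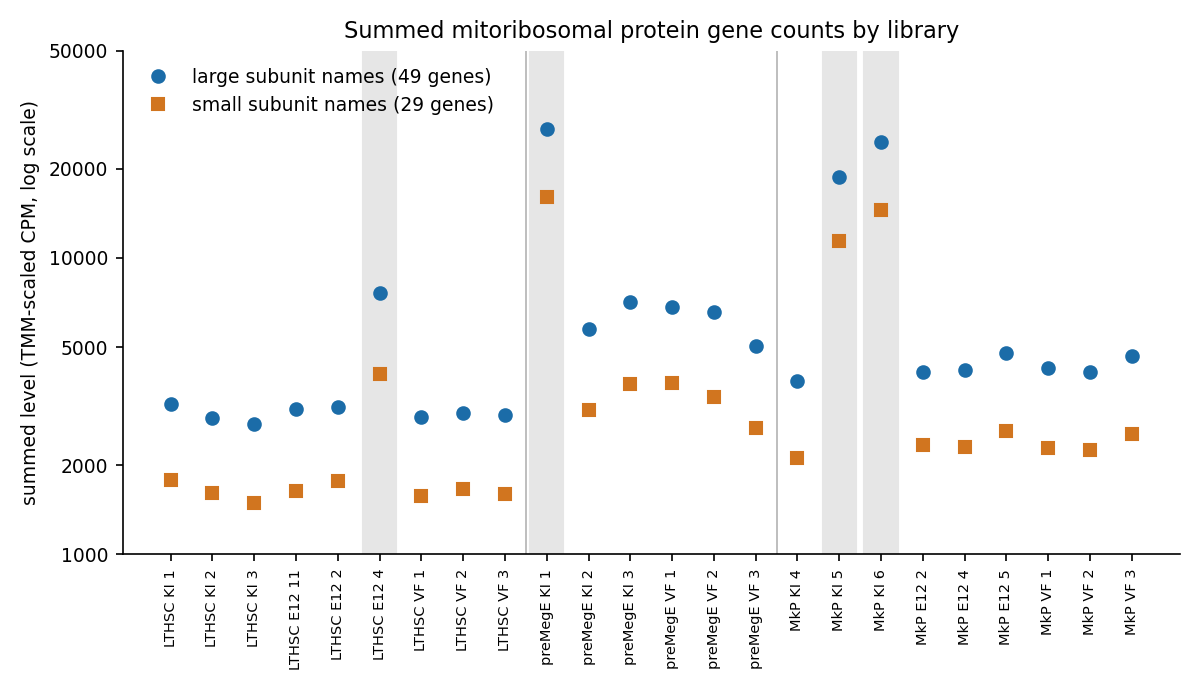
Summed TMM-scaled CPM of the 49 large (circles) and 29 small (squares) subunit genes in each of the 24 libraries, on a log axis; grey bands mark the 4 libraries with a scaling factor under 0.8. The 4 marked libraries stand above the others of their population in both subunits.

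By level per length (RPKM, which is TMM-scaled CPM per kilobase of gene), the members with the highest mean over the 24 libraries were Mrpl33 at 672, Mrpl42 at 580, Mrps18c at 566, Mrps16 at 446 and Mrps21 at 393. These means rest on the 4 libraries: Mrpl33 was 3660, 3710 and 4080 RPKM in preMegE KI replicate 1 and MkP KI replicates 5 and 6, and 127 to 670 in all others. Mrps21 ranked 9 by TPM. Ranks between genes also rest on the deposited length, which for Mrps16 is 566 bases, against 2572 for its principal transcript in GENCODE M21. In the libraries without those 4, Mrpl42 was 165 ± 12.2 RPKM in LTHSC (n = 8), 402 ± 97.4 in preMegE (n = 5) and from 213 to 285 in MkP (n = 7). The lowest means were Mrpl1 at 11.4, Mrps31 at 16.4, Mrpl19 at 22.4, Mrps25 at 24.8 and Mrpl11 at 25.4 RPKM.

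PreMegE differed from LTHSC most. With KI and VF averaged, 71 of 78 members were higher in preMegE and 0 lower at an adjusted p under 0.05 by edgeR's quasi-likelihood test, where 21.3% of all 14965 genes tested were called higher and 19.4% lower. The median log2 difference of the members was 1.55, against -0.02 over all genes. Of the large subunit genes 47 of 49 were called, with a median of 1.55, and of the small subunit genes 24 of 29, with a median of 1.5. Without the 4 libraries 72 members were higher, 71 of them the same, against 23.5% of all genes, and the median was 1.03 (-0.11 over all genes). In those libraries 62 of 78 members were higher in every preMegE than in every LTHSC library, which held for 12.9% of all genes.

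Mrpl12, a protein of the large subunit stalk that recruits translation factors, had the smallest p-value. It was 57.8, 94.0 and 315 RPKM at the lowest, median and highest of 9 LTHSC libraries, 254, 276 and 949 in 6 preMegE, and 165, 193 and 841 in 9 MkP. Without the 4 libraries the ranges were 57.8 to 99.3, 254 to 411 and 165 to 218, so the 3 populations did not overlap. The log2 difference of preMegE from LTHSC was 2.35 ± 0.39 (SE, edgeR adjusted p = 0.000115), and 1.83 ± 0.14 without the 4 libraries. Mrps28, a small subunit protein, had the lowest, median and highest values 27.2, 59.9 and 192 RPKM in LTHSC, 138, 190 and 1170 in preMegE, and 88.3, 113 and 793 in MkP. Its preMegE libraries lay above all LTHSC libraries other than E12 replicate 4. Its log2 difference was 2.7 ± 0.48 (edgeR adjusted p = 0.000221), and 1.93 ± 0.18 without the 4.

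Mrps18b, 1 of 3 mammalian members of the S18 family, was 38.5 to 61.6 RPKM in the 8 LTHSC, 104 to 174 in the 5 preMegE and 52.0 to 104 in the 7 MkP libraries, and its log2 difference between preMegE and LTHSC was 1.79 ± 0.30 (edgeR adjusted p = 0.000126). The paralogs Mrps18a and Mrps18c were also higher in preMegE, by 1.57 and 2.62 on the log2 scale, and by 1.06 and 1.26 without the 4 libraries. Mrpl37, a large subunit protein, was 52.3 to 98.3 RPKM in LTHSC, 115 to 279 in preMegE and 66.4 to 95.7 in MkP in the same libraries, with a log2 difference of 1.48 ± 0.27 (edgeR adjusted p = 0.000261) that was 1.5 without the 4, the smallest shift among the 10 members of smallest p. Mrpl18, Mrps26, Mrps11, Mrpl47, Mrpl20 and Mrps22 complete those 10, with log2 differences from 1.31 (Mrps22) to 2.33 (Mrpl20). Mrpl46, which shares the start region of Mrps11, was higher by 1.65 on the log2 scale, and Mrps11 by 2.07. Mrpl58, a peptidyl-tRNA hydrolase built into the large subunit, was higher by 2.01, and Mrps36 by 1.80.

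The 7 members not called were Mrpl1, Mrpl44, Mrps2, Mrps6, Mrps25, Mrps30 and Mrps31, with log2 differences from 0.24 (Mrps31) to 0.88 (Mrps6). Mrps2, a small subunit protein, passed without the 4 libraries (0.66 ± 0.13, edgeR adjusted p = 0.000239). For the other 6 the differences without the 4 libraries were 0.09 (Mrps25) to 0.51 (Mrps30), with adjusted p from 0.0626 (Mrpl44) to 0.512 (Mrps25). Mrpl1 was 7.26 to 14.4 RPKM in the 8 LTHSC libraries and 6.83 to 17.4 in the 5 preMegE, which overlap throughout. Mrps30 was 8.39 RPKM in LTHSC E12 replicate 11, from 436 counts, and 46.1 to 119 in the other 8 LTHSC libraries.

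**Figure D2:**
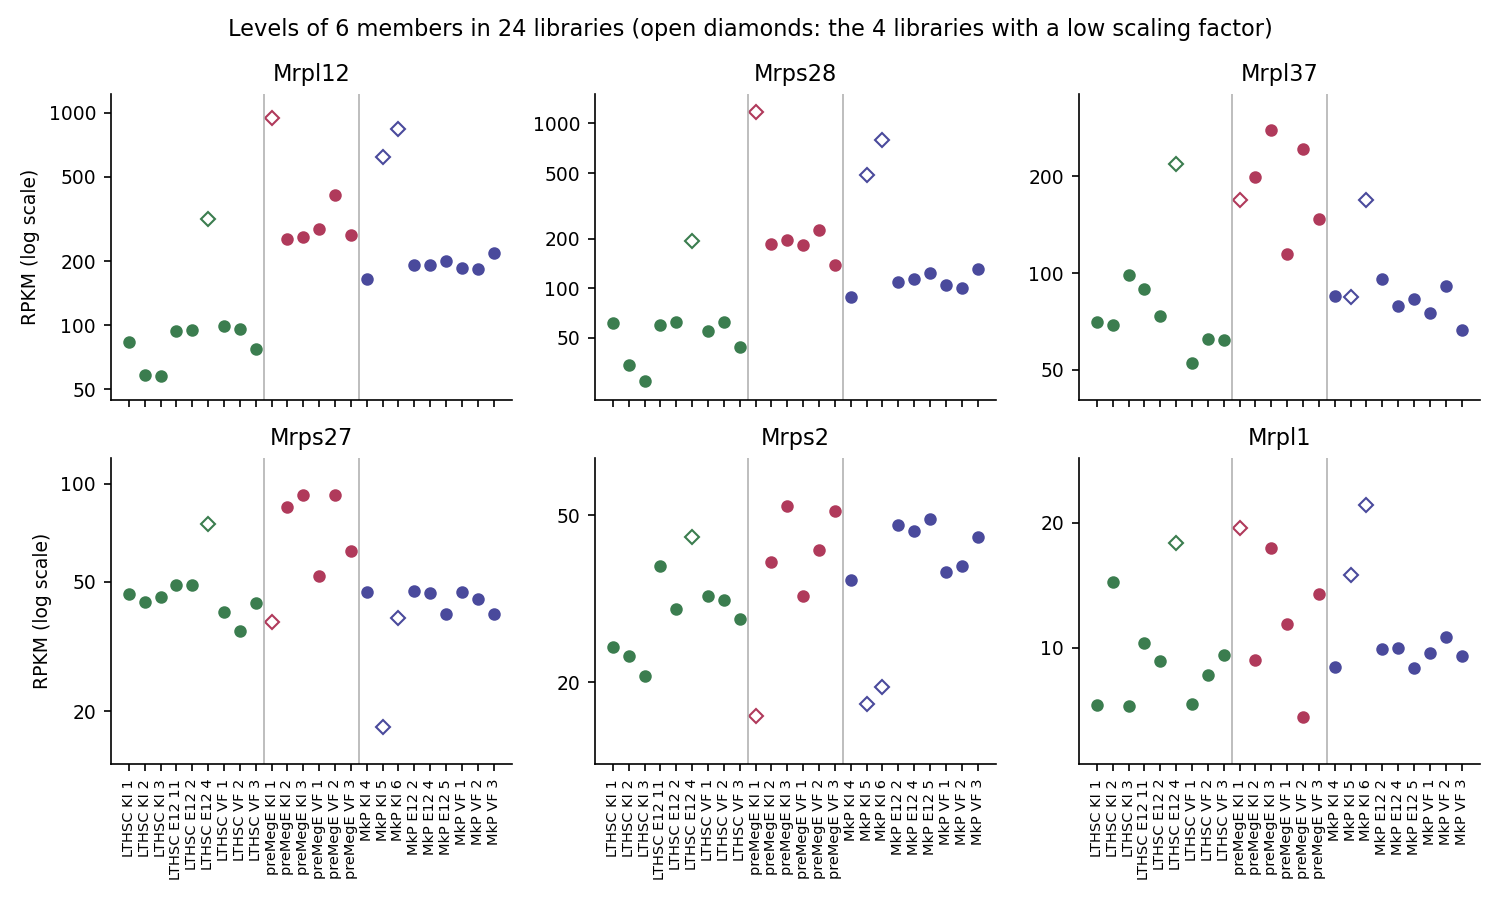
RPKM on a log axis of 6 members in each library, coloured by population (LTHSC, preMegE, MkP from left to right); open diamonds are the 4 libraries with a low scaling factor. Mrpl12 and Mrps28 separate the populations in the filled points, Mrpl37 and Mrps27 are high in most preMegE libraries, Mrps2 is low in 3 of the 4 diamonds and Mrpl1 overlaps throughout.

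Markers of other cell types moved with the preMegE comparison. The 12 lymphoid markers summed to 208 to 1960 CPM in the 6 preMegE libraries and to 44.2 to 86 CPM in the 8 LTHSC libraries, and all 11 lymphoid markers tested were higher (median log2 7.70). The neutrophil and monocyte list summed to 2620 to 19500 CPM in preMegE and the 10 mast cell and basophil markers to 163 to 493 CPM, against 336 to 2280 and 6.86 to 37.1 CPM in those LTHSC libraries. The 29 cell cycle genes also moved: 26 were higher, with a median log2 difference of 1.38. The part of these in the mitoribosomal difference was not tested.

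By genotype, the medians within KI and VF came close to each other without the 4 libraries, none of which is VF. Within KI the median was 2.02 with 66 members called higher (17.1% of all genes), and 1.0 with 64 called without the 4 (17.8%). Within VF the median was 1.05 with all libraries in the fit and 1.01 without the 4. The 3 members called within VF in the first fit were Mrpl12, Mrpl37 and Mrps18b (4.13% of all genes), and 66 were called without the 4 (16.1%).

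In the averages over genotypes, the members were higher than in LTHSC by less in MkP than in preMegE. These averages use unlike genotypes, as preMegE has no E12 libraries. Within KI, with all libraries, the MkP median was the larger. Averaged over 3 genotypes, 53 of 78 members were higher in MkP than in LTHSC and 0 lower, where 17% of all genes tested were called higher and 17.7% lower. The median was 0.85 (0.01 over all genes), with 34 of 49 large and 19 of 29 small subunit genes called. Without the 4 libraries 48 were higher with a median of 0.43, where 18.6% of all genes were called higher, 41 of them shared with the 53. In those libraries 37 members were higher in every MkP than in every LTHSC library, against 10.9% of all genes.

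Mrps26, a small subunit protein, was 42.0 to 62.1 RPKM in the 8 LTHSC libraries and 91.7 to 123 in the 7 MkP. Its log2 difference was 1.3 ± 0.27 (edgeR adjusted p = 0.000952), and 0.94 ± 0.11 without the 4. Mrps23 was 25.0 to 32.5 RPKM in those LTHSC libraries, 45.0 to 57.4 in MkP and 38.9 to 52.2 in preMegE, and it differed by 0.92 ± 0.19 between MkP and LTHSC (0.79 without the 4). The preMegE and MkP ranges of Mrps23 overlap, and both lie above LTHSC. Mrpl12 was higher in MkP by 1.45 ± 0.31, Mrpl18 by 1.12 ± 0.26 and Mrpl54 by 1.70 ± 0.42, which fell to 0.93 for Mrpl54 without the 4. By genotype, 64 members were called within KI (median 2.23, 17.8% of all genes higher). Within E12 0 were called (median -0.07, 2.09% of all genes higher and 4.79% lower) and within VF 0 (median 0.56, 1.6% higher and 3.86% lower), while 0 and 6 members passed an unadjusted p under 0.05, against 20.4 and 17.6% of all genes. Without the 4 libraries the medians were 0.36, 0.44 and 0.51, with 6, 12 and 27 members called higher against 5.98, 7.9 and 8.38% of all genes. In that fit MkP KI and LTHSC E12 keep 1 and 2 libraries, and the lone MkP KI library is assumed to vary like the other groups.

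Between MkP and preMegE the number of members called turned on the 4 libraries. Averaged over KI and VF, with all libraries 2 members were lower in MkP, Mrpl37 by 1.03 ± 0.27 on the log2 scale (edgeR adjusted p = 0.0187) and Mrps27 by 0.85 ± 0.23 (edgeR adjusted p = 0.0261), against 4.26% of all genes, and 0 were higher, against 3.27%. The median was -0.17, and it ran from -0.35 to 0.35 when 1 library at a time was left out. When the 4 were left out 35 members were lower and 0 higher, with a median of -0.57, against 8.61% of all genes called lower and 8.36% higher. With the length correction described below 7 were lower and 0 higher (6.13 and 4.67% of all genes), and with the correction and without the 4 libraries 22 and 0 (8.01 and 5.59%). Mrps27, a pentatricopeptide repeat protein of the small subunit, was 39.8 to 46.7 RPKM in the 7 MkP libraries, 52.0 to 92.2 in the 5 preMegE and 35.3 to 48.7 in the 8 LTHSC. MkP and LTHSC overlap for it, and preMegE lies above both. Mrpl45 (log2 -0.5), Mrpl9 (-0.47) and Mrps18b (-0.58) were next by p with all libraries and did not pass, and without the 4 libraries their log2 differences were -0.72, -0.6 and -1.05 and passed. In the libraries without the 4, 18 members were lower in every MkP than in every preMegE library, against 5.04% of all genes.

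**Figure D3:**
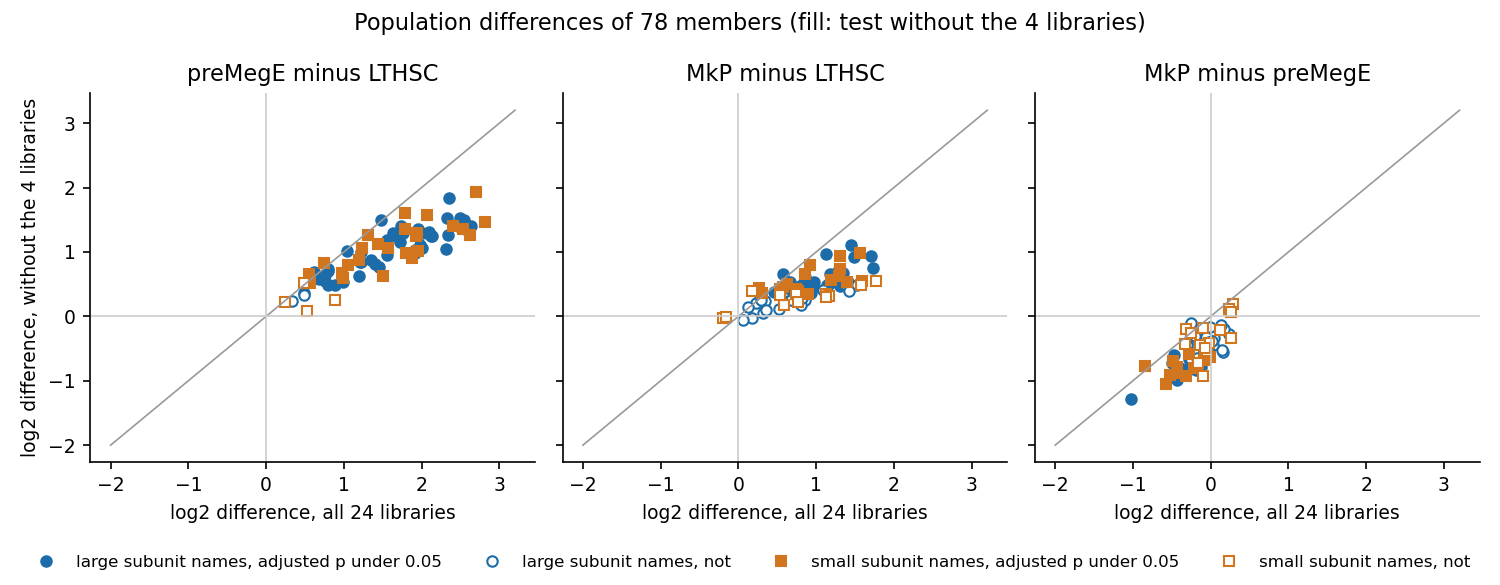
Log2 difference of each of the 78 members for the 3 population comparisons, with all 24 libraries (horizontal) and without the 4 libraries (vertical); filled symbols passed an adjusted p under 0.05 without the 4 libraries, and the diagonal marks equal values. Most points of the first 2 panels lie above 0 and under the diagonal, and most of the third lie below 0 on the vertical axis.

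Other genes of mitochondrial protein synthesis were taken from fixed lists, which were drawn up with earlier results known, and their counts stand beside the 21.3% of all genes called higher and 19.4% called lower in this comparison. Of 5 mitoribosome proteins with other symbols, 4 were higher in preMegE than in LTHSC and 0 lower: Chchd1 (log2 2.13), Gadd45gip1 (2.31), Aurkaip1 (1.6) and the small subunit GTP-binding protein Dap3 (1.13). Of 18 factors of mitochondrial translation 9 were higher and 0 lower, among them the elongation factors Tufm (1.17), Tsfm (1.45) and Gfm1 (0.77). Of 22 aminoacyl-tRNA synthetases and amidotransferase subunits 12 were higher and 0 lower, with Sars2 at 1.31 and Cars2 at 1.09. Of 30 assembly and rRNA factors 13 were higher and 0 lower, with Mpv17l2 at 2.07, C1qbp at 1.61 and Rbfa at 1.38, and this list also holds Bop1 and Nsun2, which act mainly outside mitochondria. Of 22 genes of mitochondrial DNA and RNA upkeep 4 were higher and 0 lower: Tbrg4 (1.69), Top1mt (1.12), Elac2 (0.92) and Supv3l1 (0.79), a share near that of all genes. Of 12 regulators of mitochondrial biogenesis 3 were higher, Myc (1.10), Pprc1 (0.93) and Esrra (1.26), and 3 lower, Mycn (-2.03), Ppargc1a (-2.95) and Gabpb1 (-0.69), a subunit of the ETS factor GABP, again near the shares of all genes. Over the 20 other libraries the 6 lists had 5, 9, 13, 15, 8 and 3 members higher and 0, 0, 0, 0, 1 and 3 lower, where 23.5% of all genes were called higher and 26.3% lower. Esrra was then no longer called (0.36, edgeR adjusted p = 0.339), and Nrf1 was (0.55).

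The genes of the cytosolic ribosome and of the nuclear-encoded respiratory chain were higher in the same comparisons. In preMegE against LTHSC, 77 of 79 cytosolic ribosomal protein genes were higher with a median log2 difference of 2.01 (1.08 without the 4), and 73 of 79 tested respiratory chain genes with a median of 2.29 (1.24 without), 1 being lower. In MkP against LTHSC the counts were 76 of 79 (median 1.39) and 61 of 79 (1.44), and without the 4 libraries 46 of 79 (0.52) and 59 of 81 (0.56). The mitoribosomal medians in the same fits without the 4 were 1.03 and 0.43. Both lists are of shorter genes still, with median lengths of 710 and 708 bases. With the length correction described below and all libraries, preMegE against LTHSC had 53 of 79 (median 0.71) and 71 of 79 (0.84) higher, and the mitoribosomal median of 0.77 then lay above the cytosolic. The differences between these medians were not tested.

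Gene length was checked because the members are short. Their median length in the deposited table was 1053 bases, from 407 (Mrps21), 412 (Mrpl52) and 466 (Mrpl33) to 5000 (Mrpl19), 6065 (Mrps25) and 6712 (Mrpl17), against 2766 over all genes tested. Of 5 equal bins of all tested genes by length, the shortest (43 to 1491 bases) held 54 of the 78. Each of the 4 libraries was set against the mean of its population's libraries outside the 4. The median member was higher by 1.37 in log2 CPM in LTHSC E12 replicate 4 and by 1.78 in preMegE KI replicate 1. In MkP KI replicates 5 and 6 it was higher by 1.63 and 2.20. All genes of the shortest bin were higher too, with medians of 0.98, 1.21, 1.07 and 1.5, and genes over 2312 bases were lower, with bin medians from -0.83 to -0.29. The members and short genes in general were thus high in the same libraries.

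At like length the member medians lay above those of all genes in these 4 libraries, and other lists of short genes did so too. Within the shortest bin the 54 members had medians of 1.47, 2.06, 2.0 and 2.57, above the median of all genes of the bin in each library. The 14 members of the next bin (1491 to 2312 bases) stayed nearer their population, with medians of 1.08, 0.02, -0.09 and 0.41, against 0.48, -0.36, -0.43 and -0.23 for all its genes. These medians were not tested against each other. Because a gene's length depends on the annotation, the principal transcript of GENCODE M21 was used as well. By both measures 11 members were over 2000 bases, and their medians were 1.13, 1.45, 0.84 and 1.19, while the 9222 genes over 2000 bases by both had medians of -0.58, -0.46, -0.63 and -0.68. By both measures 22 members were under 1000 bases, with medians of 1.48, 2.88, 2.77 and 3.2, against 1.06, 2.16, 2.12 and 2.5 for 1165 genes. By principal transcript alone, the 26 members under 1000 bases had medians of 1.47, 2.88, 2.63 and 3.2. The 62 cytosolic ribosomal protein genes under that length had 1.27, 3, 3.43 and 3.32. The 51 respiratory chain genes under it had 1.54, 3.56, 3.84 and 3.88. Mrpl17, the longest member at 6712 bases, was higher by 1.24, 2.45, 2.45 and 2.98, and Mrpl57 at 2321 bases by 1.26, 3.68, 3.83 and 3.67. Across the members, Spearman's correlation of this difference with length was -0.42, -0.63, -0.62 and -0.64 in the 4 libraries, over 78 genes that share each library and are not independent.

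A few members were low where the rest were high, and they are named after their values were seen. Mrps2 (2079 bases) was 16.6 RPKM in preMegE KI replicate 1 against 32.1 to 52.7 in the other preMegE, and 17.8 and 19.5 RPKM in MkP KI replicates 5 and 6 against 35.1 to 49 in the other MkP. Here each of the 4 libraries with a low scaling factor was set against its population's libraries outside those 4. Mrpl10, Mrps2, Mrps27 and Mrpl3 lay below all of these in preMegE KI replicate 1 and in MkP KI replicates 5 and 6. In LTHSC E12 replicate 4 these members were higher instead, by 0.66 to 1.11. There 77 of 78 members lay above the other 8 LTHSC libraries, with Mrpl50 the exception. The numbers above all libraries of the population outside the 4 were 64 in preMegE KI replicate 1, 65 in MkP KI replicate 5 and 71 in replicate 6. Of all genes, 29.6 to 30.2% lay above them in the 4 libraries.

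The population differences were recomputed with a length correction. Each library's trend on length, of log2 CPM as deviations from the gene means over all libraries of the fit, was taken out. With all libraries 64 members were higher in preMegE than in LTHSC (median 0.77, background 24.7%) and 40 in MkP (0.39, background 20.8%), and 0 were lower in either (18.7 and 18.5% of all genes). Of these, 61 and 35 were also among the 71 and 53 called without the correction. With the correction and without the 4 libraries the counts were 68 (median 0.69, background 26.9%) and 38 (0.31, background 20.3%), again with 0 lower (22.2 and 20% of all genes). With the length of the principal transcript in place of the deposited length, and all libraries, 70 were higher in preMegE (median 0.96, background 24.9%) and 50 in MkP (0.53, background 20.6%). In preMegE, 61 members were higher in all 4 fits (with and without the 4 libraries and the correction by deposited length), and in MkP 26. Under the correction the medians of the shorter and longer members were 0.74 and 0.83 in preMegE, where they had been 1.94 and 1.02.

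**Figure D4:**
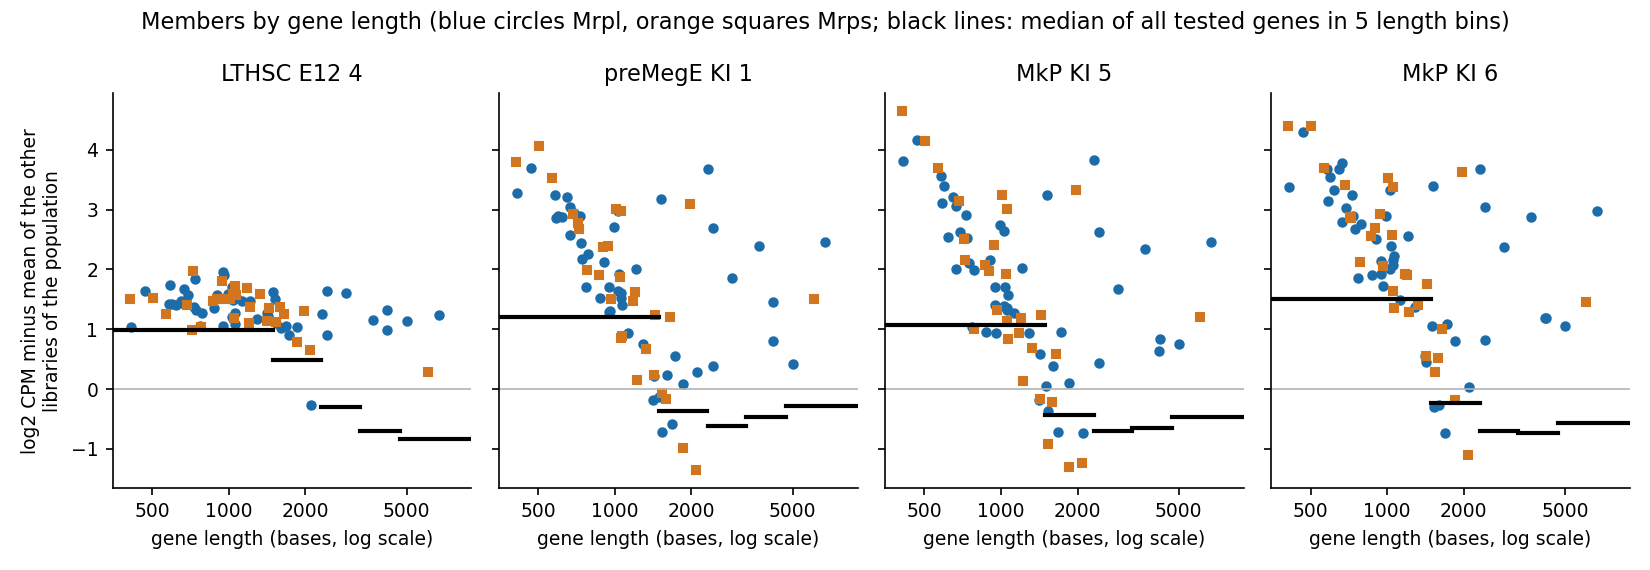
Log2 CPM of each member against deposited gene length on a log axis, in the 4 libraries with a low scaling factor. The mean of the population's libraries outside the 4 is subtracted. Black lines are medians of all tested genes in 5 length bins, cut at the plot's edges. Members lie mostly above the black lines at each length, and a few of middle length lie below 0 in the last 3 panels.

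No member was called between genotypes in any of the 7 comparisons by edgeR with all libraries and the filter on low counts, where few genes of any kind were called. Without that filter MkP E12 against KI had 33 members lower, against 5.69% of all genes lower and 0.33% higher. In LTHSC the shares of all genes called higher and lower were 0.0212 and 0.0707% (VF against KI), 0.0353 and 0.00707% (E12 against KI) and 0.00707 and 0.0283% (VF against E12). In preMegE they were 0 and 0.0151%, and in the 3 MkP comparisons 0. At an unadjusted p under 0.05 the counts of members were 0 (LTHSC VF against KI), 21 (LTHSC E12 against KI), 17 (LTHSC VF against E12), 6 (preMegE VF against KI), 62 (MkP VF against KI), 63 (MkP E12 against KI) and 0 (MkP VF against E12). The shares of all genes at that p were 8.11, 13.8, 11, 6.58, 26.9, 29 and 1.24% in the same order, so the 6 of 78 in preMegE is near the share of all genes. The median log2 differences were 0.01, 0.63, -0.70, -0.95, -1.58, -1.61 and 0.02 in the same order, and without the 4 libraries 0.01, 0.03, -0.05, -0.07, 0.17, 0.12 and 0.02, again with 0 members called. With the length correction and all libraries they were 0.01, 0.29, -0.25, -0.13, -0.25, -0.23 and -0.01, and with the correction by principal transcript length 0, 0.39, -0.37, -0.31, -0.59, -0.58 and 0.01. How much of the difference goes with length thus depends on which length is used. Every comparison with a median beyond 0.6 has 1 or 2 of the 4 libraries in one arm.

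The members of smallest p in MkP show this. Mrps18c, the S18 protein of the small subunit, was 150, 2770 and 3280 RPKM in MkP KI, 131, 152 and 185 in E12 and 157, 143 and 178 in VF. KI replicate 4 lay within the range of the other genotypes, and replicates 5 and 6 far above. The log2 difference of VF from KI was -3.82 ± 0.88 (edgeR adjusted p = 0.0755) and that of E12 from KI -3.87 ± 0.88 (edgeR adjusted p = 0.0616). Mrps21, also of the small subunit, was 79.4, 2450 and 2080 RPKM in KI, 74.9, 85.6 and 113 in E12 and 96.4, 84.7 and 183 in VF, with a log2 difference of -4.21 ± 0.98 between E12 and KI. Mrpl27, Mrpl55, Mrpl57, Mrpl23 and Mrpl33 were the others among the 5 of smallest p in either comparison, with differences from -2.76 (Mrpl55, VF) to -3.87 (Mrpl33, E12). The mast cell and basophil list was also higher in those MkP KI replicates, at 1030 and 765 CPM against 66.5 to 302 in the other 7 MkP libraries, and its part was not tested.

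DESeq2 called 51 members lower in MkP VF and 53 lower and 1 higher (Mrps2, log2 0.86) in MkP E12 than in KI, from the same libraries, where it called 12.3 and 13.1% of all genes lower and 2.6 and 3.33% higher. Without MkP KI replicate 4, edgeR called 68 lower and 2 higher (Mrps2 and Mrpl10) in both, against 23.7 and 24.3% of all genes lower and 25.3 and 25.5% higher. When KI replicate 5 or 6 was left out instead it called 0 in both.

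In LTHSC, Mrpl47 was 16.1, 18.5 and 17.2 RPKM in KI, 30.2, 24.3 and 50.6 in E12 and 18.0, 18.6 and 19.0 in VF. E12 lay above the other genotypes in each of its 3 libraries, and the log2 difference from KI was 1.02 ± 0.32 (edgeR adjusted p = 0.267). The highest E12 value, 50.6 for Mrpl47 and 44.4 for Mrps2 below, is that of replicate 4. That library went against its label and held nearly all members high. Of all genes, 8.49% were higher in every E12 than in every KI library, and 9.72% than in every VF library. Mrps2 was 24.3, 23.1 and 20.7 RPKM in KI, 37.9, 29.9 and 44.4 in E12, and 32.2, 31.5 and 28.4 in VF, with a difference of 0.71 ± 0.23 between E12 and KI (edgeR adjusted p = 0.268). Mrps30 was 58.7, 78.9 and 78.3 RPKM in LTHSC KI and 49.1, 46.1 and 50.3 in VF, which do not overlap. Of all genes, 13.5% were lower and 17.4% higher in VF without overlap. The Mrps30 difference was -0.61 ± 0.66 with E12 in the fit (edgeR adjusted p = 0.93) and -0.60 in a fit of those 2 groups (edgeR adjusted p = 0.0427), the E12 group holding the library with 8.39 RPKM. That fit of 2 groups called 3.42% of all genes lower and 3.41% higher. In preMegE, Mrpl35 had the smallest p, with a difference of -1.55 ± 0.65 of VF from KI (edgeR adjusted p = 0.642).

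Whether the genotype difference itself differed between populations was tested with 3 contrasts, and edgeR called 0 members in each. Of all genes, 0.0134% were called higher in the first contrast, 0 in the second, and 0.00668% higher and 0.0267% lower in the third. For VF against KI in MkP minus the same in LTHSC the median was -1.56 with 46 members at an unadjusted p under 0.05, for preMegE minus LTHSC -1.0 with 1, and for E12 against KI in MkP minus LTHSC -2.28 with 64. Of all genes, 14.4, 4.43 and 24.3% passed that p. Without the 4 libraries the medians were 0.18, -0.06 and 0.06, with 0 called.

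**Figure D5:**
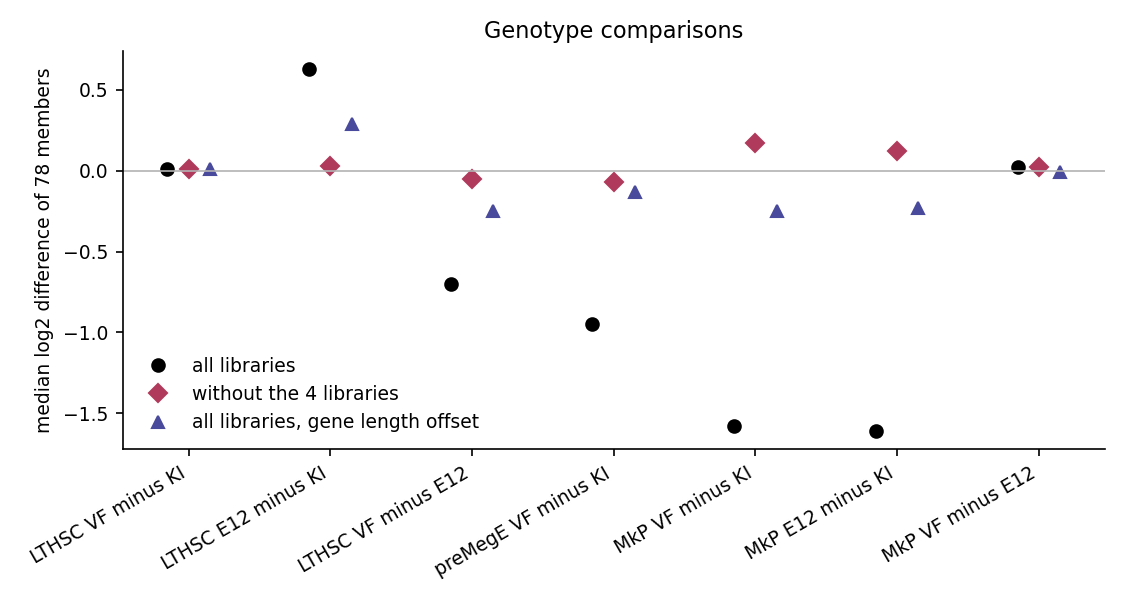
Median log2 difference of the 78 members for the 7 genotype comparisons, with all libraries (circles), without the 4 libraries (diamonds) and with all libraries and the correction by deposited length (triangles). The circles reach -1.61, while the diamonds stay between -0.07 and 0.17.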

How the data were processed

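RNA was extracted from sorted cells with the PicoPure kit and made into libraries with Smart-seq2, per the labels' protocols. Read counts per gene were deposited by the authors as raw counts, with a gene length column. STAR 2.7.0c, featureCounts, Subread 1.6.4 and the build mm10 are named in the submitters' processing notes; how the length was computed is not given in the sources used here. Library columns were matched by name, with 6 columns named MEP taken as preMegE, since these names fit no other group. Rows without a symbol (16, at most 0.0132% of counts) were left out. Members and lists were chosen with earlier results of these data known.

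Tests on the counts used the robust quasi-likelihood method of edgeR 4.0.16 under R 4.3.3 (TMM scaling, low genes removed by filterByExpr, Benjamini-Hochberg adjustment over all genes tested), genotypes within each population and populations over all 24 libraries. Called means an adjusted p under 0.05. Levels are TMM-scaled RPKM from the deposited length. The length correction took each gene's log2 CPM (prior count 2) minus its mean over all libraries of the fit. The lowess trend (span 0.4) of this deviation on log10 length, in each library, was used as an offset. In fits over populations, population differences that follow length are thus taken out too. Other settings were DESeq2 1.42.0, limma 3.58.1 (voom), RLE scaling, no filter, each library left out, the replicate block and, chosen after seeing the data, fits within a genotype and the transcript length. Scripts were tested on simulated data. Each gene was drawn independently, so the shared shift of short genes in the 4 libraries was not simulated. Of 100 genes changed by log2 1, VF against KI recovered 7 in LTHSC, 0 in preMegE and 1 in MkP. Of 100 changed by log2 2 it recovered 59, 10 and 26. PreMegE against LTHSC recovered 22 and 73. Named members per comparison are up to 10 each way by smallest p among those called, or the 5 of smallest p where fewer than 5 passed, plus the highest, lowest, shortest and longest members and 6 of unusual role; Mrpl10, Mrpl3, Mrpl46 and Mrpl50 were also named after their values were seen.  No 2 libraries agreed within sampling noise (smallest chi-square per degree of freedom 20.2 over 276 pairs). Mitochondrially encoded genes were not analysed here.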

Additional observations from a re-analysis of the deposited data

How the results depend on the processing

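In the population comparisons the members called kept their direction, but the median member difference between MkP and preMegE did not, as given below. With other scaling, filter, DESeq2, limma voom or a transcript length offset, the counts of members higher in preMegE and in MkP than in LTHSC stayed within 1.5 times of 71 and 53, and the 2 lower in MkP than in preMegE stayed close except where given here. Counts that moved were 7 (length correction), 35 (without the 4 libraries) and 22 (both) for MkP against preMegE. Of all genes, this comparison called 1.86% lower and 1.03% higher within KI, and 0.535 and 0.481% within VF. Without the 4 libraries it called 4.86% lower and 3.81% higher within VF. No share is given for KI there, as 1 MkP KI library is left. The counts of members follow. Within genotypes that comparison gave 0 in KI and 0 in VF, and 5 and 14 without the 4 libraries. MkP against LTHSC gave 0 within E12 and 0 within VF, and 6, 12 and 27 within KI, E12 and VF without the 4. PreMegE against LTHSC within VF gave 3. Mrpl47 turned direction in MkP against LTHSC within E12 (log2 -0.01). Of the genotype counts, all 0 in the first fit, MkP E12 against KI gave 33 without a filter (5.69% of all genes lower) and 54 with DESeq2. MkP VF against KI gave 51 with DESeq2, and LTHSC VF against KI 1 in a fit of its 2 groups (3.42% of all genes lower). The differences between populations, also 0 in the first fit, gave 9 (VF, MkP) and 54 (E12) with DESeq2, against 1.69 and 9.67% of all genes lower. The cause of these moves was not tested.

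Leaving out 1 library at a time gave 61 to 71 members for preMegE against LTHSC, where 17.7 to 20.7% of all genes were higher. For MkP against LTHSC it gave 31 to 69, the lowest without MkP KI replicate 6 and the highest without LTHSC E12 replicate 4 (2227 of 15344 and 3147 of 15323 genes higher). For MkP against preMegE it gave 0 to 2, where 2.68 to 8.26% of all genes were lower and 1.83 to 5.68% higher. The count was 0 when preMegE KI replicate 3 or VF replicate 2 or MkP VF replicate 1 or 3 was left out. In these fits the median log2 difference of the members between MkP and preMegE ran from -0.35 to 0.35, so its sign was not stable. Both MkP comparisons with KI gave 0 to 70, the highest without MkP KI replicate 4. The differences of VF and of E12 between MkP and LTHSC gave 0 to 48 and 0 to 65, again highest without that library, where 9.69 and 15.7% of all genes were called lower. The E12 difference was also 32 and 46 without LTHSC E12 replicates 11 and 2 (4.71 and 8.15% of all genes lower). The other genotype results stayed at 0. The labels do not say whether a shared number marks a shared mouse, so the numbers were not taken to pair libraries, whose deviations from the group means correlated at -0.06 to 0.26. The replicate block was fitted over populations only in genotypes with some recurring numbers. With it, MkP against LTHSC, in E12 and VF without KI, gave 0, against 1 in the same libraries without the block. PreMegE against LTHSC, in KI and VF, gave 68 against 72, and MkP against preMegE, in VF only, 3 against 2. The 3 genotype comparisons gave 0. With and without the block, 5.51 and 8.38% of all genes were higher in the first of these and 19.9 and 23.5% in the second. In the third 4.01 and 3.44% were lower. The genotype comparisons with the block called at most 2.34% of all genes higher and 2.64% lower. The lowest count of any member in any library was 73 (Mrps31), and groups of 3 limit the precision.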
